A study of Mus musculus with 12 samples.

Results

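Brown adipose tissue (BAT) was compared with subcutaneous white adipose tissue (sWAT) of mice that had spent 72 hours at 4 °C. The comparison uses 6 of the 12 RNA sequencing libraries of the series, 3 from BAT and 3 from sWAT, chosen by their labels alone, and all 23163 gene symbols of the deposited count table. Both groups came from male C57Bl/6 mice aged 8 to 12 weeks, with no transgene or drug named. The labels count 20 mice, 10 at each temperature, and do not say whether a library held 1 animal or a pool, or whether BAT and sWAT libraries of 1 number came from the same animals. What the tests weigh is thus the spread among 3 libraries, which may be technical. The other 6 libraries, 3 of each tissue at 30 °C (thermoneutrality, where a mouse needs no extra heat), are used for context only.

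Brown fat burns fuel to make heat. Its mitochondria carry uncoupling protein 1 (Ucp1), which lets protons flow back without making ATP, and noradrenaline from sympathetic nerves switches this on through beta-adrenergic receptors and cAMP. White fat stores triglyceride and secretes hormones such as leptin, but in the cold subcutaneous white fat of mice gains thermogenic cells that are called beige. The comparison asks how far the depots still differ when both are cold-exposed.

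Total counts ran from 29568610 to 56243016 in the 3 BAT libraries and from 33695611 to 53485998 in the 3 sWAT libraries. Levels are given as CPM, which are counts scaled to library size with TMM factors over the 6 libraries, always in the order of libraries 1, 2 and 3. The adipocyte genes Adipoq, Plin1, Fabp4 and Lpl were abundant in all 6. A few libraries stood apart from their group. Mitochondrially encoded genes took 24.4%, 20.0% and 53.8% of the BAT counts and 33.6%, 19.7% and 23.4% of the sWAT counts. Log2 CPM sloped on a gene's GC content by, per 10 percentage points, 0.40, 0.48 and −0.53 in BAT and −0.26, 0.41 and 0.12 in sWAT, so BAT library 3 and sWAT library 1 differed from the others of their tissue. Zic1 (ENSMUSG00000032368.14, mm10 chromosome 9, 91358058 to 91365810), a transcription factor gene used as a marker of the classical brown fat lineage, gave 17.1, 24.6 and 11.2 CPM in BAT. In sWAT it gave 0.0766, 7.43 and 5.28 CPM. The sWAT libraries 2 and 3 thus held Zic1 at a level between sWAT library 1 and BAT. On the scale of all 12 libraries, the 3 sWAT libraries at 30 °C held 0, 0.0981 and 0.0190 CPM. What sets sWAT libraries 2 and 3 apart from library 1 was not tested, and for the genes of heat production and fuel use, and for Zic1, values without them are given too.

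The bases just before the start sites of 5 genes are shown because they head the groups described below: Ucp1 for heat production, Zic1 for the brown lineage, Lep for white fat hormones, and Glycam1 and Cd79a for the lymphoid genes with the largest differences. Sequences are the 250 bases before the RefSeq start on GRCm38.p6, read 5′ to 3′ on the gene's own strand. They lie at chr8:83290098-83290347 (plus strand, Ucp1), chr9:91365769-91366018 (minus strand, Zic1), chr6:29059971-29060220 (plus strand, Lep), chr15:103565082-103565331 (minus strand, Glycam1) and chr7:24897247-24897496 (plus strand, Cd79a).
Ucp1: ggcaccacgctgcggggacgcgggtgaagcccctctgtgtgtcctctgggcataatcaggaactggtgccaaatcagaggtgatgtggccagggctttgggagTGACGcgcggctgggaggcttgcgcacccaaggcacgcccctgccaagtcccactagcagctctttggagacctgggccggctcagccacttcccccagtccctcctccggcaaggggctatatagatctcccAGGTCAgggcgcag
Zic1: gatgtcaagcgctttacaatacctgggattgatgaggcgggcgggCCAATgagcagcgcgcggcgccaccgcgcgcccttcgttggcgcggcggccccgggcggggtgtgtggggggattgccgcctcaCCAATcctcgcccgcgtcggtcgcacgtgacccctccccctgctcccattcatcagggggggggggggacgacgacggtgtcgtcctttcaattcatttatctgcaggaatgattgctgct
Lep: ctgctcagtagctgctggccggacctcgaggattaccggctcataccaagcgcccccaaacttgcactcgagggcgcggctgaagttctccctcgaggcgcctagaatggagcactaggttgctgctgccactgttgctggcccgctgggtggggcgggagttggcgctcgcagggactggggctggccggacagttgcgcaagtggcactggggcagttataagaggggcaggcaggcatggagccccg
Glycam1: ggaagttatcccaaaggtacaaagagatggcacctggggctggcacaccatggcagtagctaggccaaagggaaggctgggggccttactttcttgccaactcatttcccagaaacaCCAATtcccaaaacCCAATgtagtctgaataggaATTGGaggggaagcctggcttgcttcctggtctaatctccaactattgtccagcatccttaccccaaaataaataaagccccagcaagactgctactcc
Cd79a: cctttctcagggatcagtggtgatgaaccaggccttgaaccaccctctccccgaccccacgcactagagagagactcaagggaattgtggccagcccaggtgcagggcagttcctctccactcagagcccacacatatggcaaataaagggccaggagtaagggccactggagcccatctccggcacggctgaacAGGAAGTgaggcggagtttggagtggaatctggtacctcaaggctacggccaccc
Capitals mark matches, on either strand, to the TATA box motif TATAAA, the promoter element CCAAT, the core TGACG of cAMP response elements, the ETS factor core AGGAAGT or the nuclear receptor motif AGGTCA. None of these motifs contains another. Over all 32851 RefSeq promoters of this length they occurred in 12.4%, 33.8%, 17.8%, 7.69% and 14.0%, in that order. The Ucp1 stretch held a TGACG and an AGGTCA, those of Zic1 and Glycam1 held CCAAT boxes only, that of Cd79a held an AGGAAGT, and that of Lep held none of the 5. A promoter entry was found for 254 of the 357 genes that the naming rule covers. In 35 promoters of 26 thermogenic genes the 5 motifs occurred, in the order given above, in 11.4%, 37.1%, 31.4%, 2.86% and 20.0%. In 15 promoters of 12 lymphocyte marker genes the shares were 6.67%, 20.0%, 6.67%, 40% and 6.67%. Some genes have more than 1 promoter entry, so promoters are not separate members. A match is a stretch of letters, not a measured binding site.

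Most genes called different between the cold depots were higher in sWAT. Of 14930 genes tested, 1441 (9.65%) passed an adjusted p of 0.05, with 116 higher in BAT (0.777% of those tested) and 1325 higher in sWAT (8.87%). Among called genes, fitted differences were also larger on the sWAT side: at least 8-fold for 607 genes there and for 0 in BAT, and at least 2-fold for 1317 and 82. The sWAT counts include genes at or near 0 counts in BAT, such as Glycam1, Hoxc10 and Hoxc9. Such genes entered the test through their sWAT libraries, and the size of their folds depends on the detection floor. How many they were was not counted. The median log2 fold change over all genes tested, coded BAT minus sWAT throughout, was 0.01. The test left many separated genes uncalled: 3787 genes had an unadjusted p under 0.05, and the groups of 3 and 3 did not overlap for 2197 genes with BAT higher (14.7%) and 3037 with sWAT higher (20.3%). The BAT count fell to 2 when BAT library 2 was left out and to 4 without sWAT library 3. It came to 1611, beside 2792 in sWAT, when BAT library 3 and sWAT library 1 were both left out. These are the libraries that differed from the others of their tissue in GC slope. The fit without them weighs the smaller spread of the libraries that remain, so its calls here and below are not separate support. Of 133 called genes covered by the naming rule, 37 stayed called in all 6 fits that left out 1 library and 96 were lost in at least 1.

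**Figure D1:**
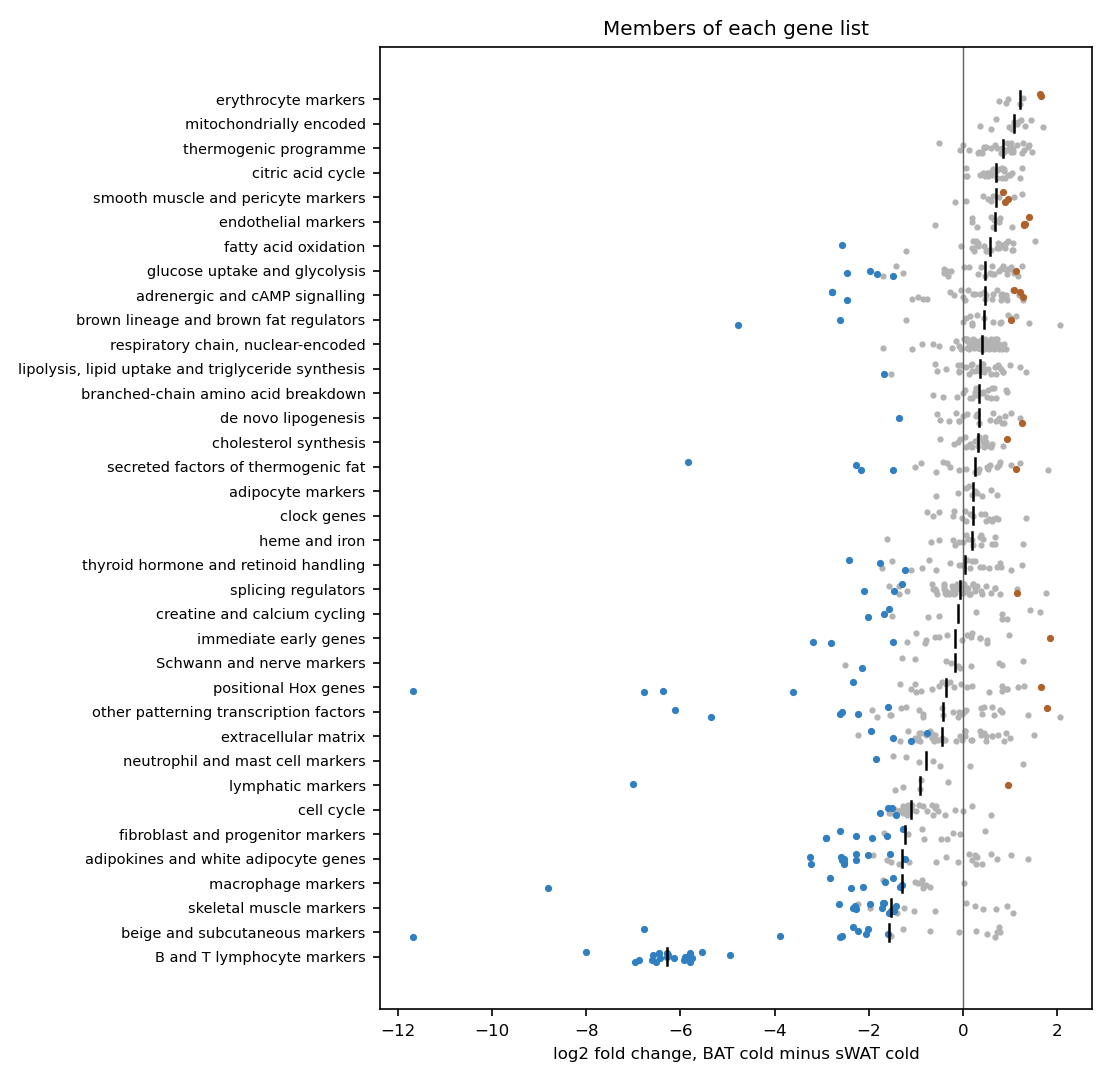
Log2 fold change (BAT minus sWAT, horizontal axis) of every tested member of each gene list (rows), with brown points for genes called higher in BAT, blue for genes called higher in sWAT, grey for genes not called, and a black bar at the list's median. Lymphocyte markers lie apart with a median of −6.28, and the lists of the thermogenic programme and citric acid cycle lie right of 0 with no coloured point.

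Of 32 genes of the thermogenic programme, 29 had a fitted level that was lower in sWAT than in BAT, but none of the 32 passed the test in either direction, where 0.777% of all genes tested were called higher in BAT and 8.87% higher in sWAT. Their median log2 fold change was 0.85, against 0.01 over all genes. In 14 of them (of all genes, 14.7%) the 3 BAT libraries lay above the 3 sWAT libraries, and 15 had an unadjusted p under 0.05, all with BAT higher. DESeq2 called 9, limma-voom 0, the fit with GC correction 4 and the fit without BAT library 3 and sWAT library 1 together 16, all higher in BAT. Over all genes those fits called 670, 110, 459 and 1611 higher in BAT, of 14930 tested and 14864 in the last. Relative to the BAT mean, the median member stood at 27.6% in sWAT library 1, 70.8% in library 2 and 58.1% in library 3. Library 1 was the lowest of all 6 libraries for 29 of the 32 (90.6%), which held for 25.1% of all genes tested.

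Ucp1 (ENSMUSG00000031710.4, chromosome 8, 83290352 to 83298452) gave 18600.0, 18164 and 16220.0 CPM in BAT and 2653, 10554 and 9099 CPM in sWAT. Every BAT library was above every sWAT library, and sWAT libraries 2 and 3 lay between BAT and sWAT library 1. The log2 fold change was 1.25 ± 0.53 (standard error, 3 libraries a group, adjusted p = 0.194), with a 95% interval from 0.01 to 2.49. Against sWAT library 1 alone it was 2.76, and without BAT library 3 and sWAT library 1 it was 0.90 (adjusted p = 0.0049). Values against sWAT library 1 alone were computed after seeing the data, and only their fold changes are given, since 1 library has no spread. Elovl3, an elongase of very long fatty acids, ran the same way, with 847, 883 and 940.0 CPM in BAT and 91.7, 486 and 434 CPM in sWAT (1.40 ± 0.56, adjusted p = 0.172). Cidea, which helps lipid droplets fuse, gave 3394, 3421 and 2799.5 CPM against 828, 2127 and 1817 CPM (1.01 ± 0.40, adjusted p = 0.169). The groups did not overlap for either gene. Against sWAT library 1 alone the log2 fold changes of Elovl3 and Cidea were 3.30 and 1.98, and without BAT library 3 and sWAT library 1 they were 0.91 and 0.79, both called there.

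Regulators of the programme were not called either. Prdm16, a coregulator that fixes brown fat identity, had the smallest adjusted p of the list, with 39.0, 51.3 and 38.0 CPM in BAT and 14.2, 26.8 and 22.3 CPM in sWAT (1.02 ± 0.29, adjusted p = 0.0689). It passed with DESeq2 (adjusted p = 0.013) and after GC correction (adjusted p = 0.025). Ppargc1a, a coactivator of mitochondrial biogenesis, gave 156, 329.6 and 315 CPM against 54.2, 171 and 102 CPM, so the lowest BAT library lay below the highest sWAT library (1.29 ± 0.47, adjusted p = 0.139). Dio2, which activates thyroid hormone inside the cell, gave 193, 245 and 401 CPM against 81.2, 184 and 150 CPM (1.01 ± 0.40, adjusted p = 0.165). Esrrb, a nuclear receptor, had the largest fold change of the list at 1.47 ± 0.54 (adjusted p = 0.141), and stood at 0.904 CPM in sWAT library 1. Against sWAT library 1 alone, the log2 fold change of Prdm16 stood at 1.62, Ppargc1a at 2.32, Dio2 at 1.80 and Esrrb at 3.21. Without BAT library 3 and sWAT library 1 they stood at 0.88, 0.83, 0.39 and 1.12, and there Prdm16 and Esrrb were called. Not every member leaned to BAT. Adrb3, the beta-adrenergic receptor of adipocytes, gave 182, 209.7 and 47.0 CPM in BAT and 103, 175 and 163 CPM in sWAT (−0.01 ± 0.52, adjusted p = 0.997), and its interval from −1.22 to 1.21 leaves a difference of over 2-fold either way possible. Ucp2, a relative of Ucp1, gave 42.4, 60.7 and 42.0 CPM against 87.4, 66.4 and 52.4 CPM (−0.51 ± 0.27, adjusted p = 0.294).

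**Figure D2:**
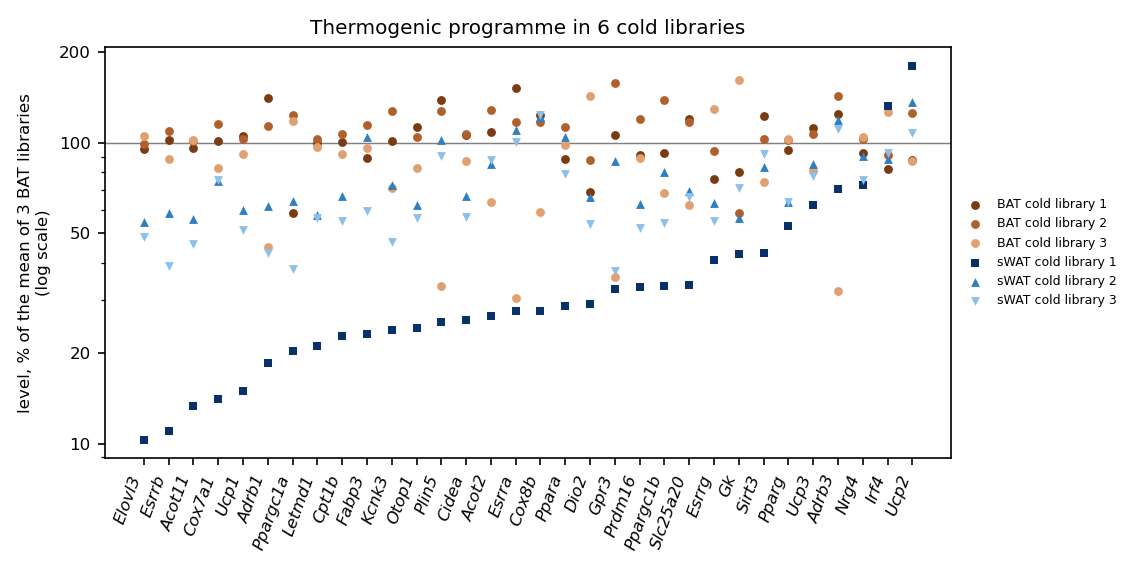
Level of each of the 32 thermogenic genes (horizontal axis) in each of the 6 cold libraries, as a percentage of the mean of the 3 BAT libraries on a log scale. Points are single libraries, brown for BAT and blue for sWAT. The squares of sWAT library 1 lie lowest for 29 of 32 genes, while triangles of sWAT libraries 2 and 3 lie at medians of 70.8% and 58.1%.

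Enzymes that burn fuel in mitochondria followed the same pattern over libraries. All 25 citric acid cycle genes had a log2 fold change above 0 and none was called. Their median was 0.71, 9 had an unadjusted p under 0.05, DESeq2 called 8 and limma-voom 0. Ogdh, a subunit of oxoglutarate dehydrogenase, was the nearest to the threshold, with 4167, 4864 and 4086 CPM in BAT and 1232, 2572 and 1824 CPM in sWAT (1.22 ± 0.36, adjusted p = 0.0796). The median citric acid cycle gene stood at 37.1%, 72.8% and 72.8% of the BAT mean in sWAT libraries 1, 2 and 3. Without BAT library 3 and sWAT library 1 together, 11 citric acid cycle genes and 11 of fatty acid oxidation were called higher in BAT. That fit called 1611 of all 14864 genes it tested higher in BAT, and DESeq2 called 670 of 14930. Of 28 genes of fatty acid oxidation, 0 were called higher in BAT by edgeR (8 had an unadjusted p under 0.05, DESeq2 called 5 and limma-voom 0), around a median of 0.58. Hadha, a subunit of the trifunctional enzyme of long-chain oxidation, gave 2594, 2513 and 2756 CPM against 658, 1637 and 1442 CPM (1.07 ± 0.39, adjusted p = 0.135). Against sWAT library 1 alone, the log2 fold change of Ogdh stood at 1.85 and Hadha at 2.02, and without BAT library 3 and sWAT library 1 at 1.04 and 0.73, both called there.

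The nuclear-encoded respiratory chain had the smallest median difference of these lists. None of its 74 genes was called, 2 had an unadjusted p under 0.05 (1 in each direction), DESeq2 called 1 in each direction and limma-voom 0. Without BAT library 3 and sWAT library 1 together 10 were called higher in BAT and 3 higher in sWAT. Of all 14864 genes tested in that fit, 1611 and 2792 were called so. The list's median log2 fold change was 0.40. In sWAT library 1 the median member stood at 31.1% of the BAT mean, in library 2 at 107.3% and in library 3 at 90.7%. That mean was lowered by BAT library 3: the list summed to 45100, 41490 and 21770 CPM in BAT and 10900, 34860 and 31080 CPM in sWAT. By these sums sWAT libraries 2 and 3 lay below BAT libraries 1 and 2 and above BAT library 3. The 13 mitochondrially encoded genes had a median of 1.09 with none called (1 with an unadjusted p under 0.05, 1 called by DESeq2, 0 by limma-voom). Their summed level was 260600, 206700 and 821400 CPM in BAT and 275100, 172500 and 193500 CPM in sWAT, so only BAT library 3 lay above all sWAT libraries.

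Genes that mark where a fat depot lies on the body were called at some members and not at others. Hox genes are arranged in clusters, and those at the later end of a cluster are expressed toward the rear of the embryo. Of 27 Hox genes tested, 1 was called higher in BAT and 5 higher in sWAT, against 0.777% and 8.87% of all genes tested, with a median of −0.37 (the same with Hoxc10 set at its bound). Hoxa4 (ENSMUSG00000000942.10, chromosome 6, 52189671 to 52191753) was the one higher in BAT, at 16.7, 23.7 and 23.8 CPM against 5.45, 7.62 and 7.22 CPM (1.66 ± 0.26, adjusted p = 0.00933). Its adjusted p was 0.0535 without BAT library 2. Those higher in sWAT were Hoxa9, Hoxa10, Hoxc8, Hoxc9 and Hoxc10, all later in their clusters.

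Hoxc10 (ENSMUSG00000022484.7, chromosome 15, 102966796 to 102971893) had no count in any BAT library and 17.8, 5.45 and 6.04 CPM in sWAT. Its pooled level in sWAT was at least 390-fold higher, taking 3 counts over the BAT group as the limit of detection (adjusted p = 0.00618). Hoxc9 had 2 counts in BAT and 367 in sWAT, a ratio of pooled levels of 131 with a counting interval from 36.0 to 1090. It gave 3.08, 2.26 and 1.74 CPM in the sWAT libraries (adjusted p = 0.00375). Hoxa9 gave 0.541, 0.607 and 0.652 CPM in BAT and 12.5, 3.86 and 5.89 CPM in sWAT (−3.62 ± 0.50, adjusted p = 0.00662). The 3 sWAT libraries were above all BAT libraries for each of these genes, and sWAT library 1 was the highest. Hoxc8 gave 4.22, 4.79 and 3.61 CPM against 36.7, 11.3 and 15.3 CPM (−2.33 ± 0.46, adjusted p = 0.0215), a call lost without any 1 BAT library, with adjusted p up to 0.0861. Hoxa10 had 4 counts in BAT in all and was lost without BAT library 2 (adjusted p = 0.0569). Hoxc10, Hoxc9 and Hoxa10 entered the test through their sWAT libraries, so a call could only be higher in sWAT. Between these ends, Hoxc6 gave 13, 13.9 and 13.4 CPM against 23.7, 13.1 and 15.1 CPM and Hoxa7 8.87, 10.0 and 9.42 CPM against 16.2, 10.8 and 11.3 CPM, neither called. Hoxc gene models overlap on the chromosome, and the strand setting of the counting is not given in the sources used here.

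Of 33 other patterning factors, 1 was called higher in BAT and 6 higher in sWAT, against 0.777% and 8.87% of all genes tested. Their median was −0.43. Tbx5, a T-box factor of the heart and forelimb, was the one higher in BAT, at 6.42, 5.71 and 7.06 CPM against 1.18, 2.76 and 1.62 CPM (1.79 ± 0.37, adjusted p = 0.0239). Tbx15, a T-box factor of the skeleton and of adipocytes, was higher in sWAT, at 8.84, 9.21 and 13.2 CPM against 25.5, 33.2 and 35.6 CPM (−1.59 ± 0.26, adjusted p = 0.011). Shox2, a homeobox factor of the limbs, gave 1.37, 1.43 and 3.12 CPM against 15.2, 5.09 and 7.66 CPM (−2.24 ± 0.52, adjusted p = 0.0375). The other 4 were Tbx1, Foxf1, Emx2 and Bcl11b, and Bcl11b, also a T cell gene, reached 16.7, 6.52 and 5.11 CPM in sWAT against at most 0.146 CPM in BAT (−6.12 ± 0.62, adjusted p = 0.00439). Bcl11b kept its call in all 6 fits that left out 1 library. Foxf1 and Bcl11b entered the test through their sWAT libraries. The calls for Tbx5 (adjusted p up to 0.0946) and Shox2 (up to 0.128) were lost without BAT library 1, BAT library 2 or sWAT library 3, Tbx5 also without BAT library 3 and Shox2 also without sWAT library 1. That for Tbx15 was lost without BAT library 1 or 2 (up to 0.0626).

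Zic1 was not called, with a log2 fold change of 2.06 ± 1.09 (adjusted p = 0.289). Against sWAT library 1 alone, the library with almost no Zic1, it was 7.83, and without BAT library 3 and sWAT library 1 it was 1.71 (adjusted p = 8.9e-05). As for Ucp1, that p-value weighs only the spread of the more alike libraries of each tissue. Among 19 genes of the brown lineage and its regulators the median was 0.45. In that list 1 was called higher in BAT and 2 higher in sWAT, against 0.777% and 8.87% of all genes tested. Ebf3, an early B cell factor related to the brown fat regulator Ebf2, gave 74.6, 76.6 and 106 CPM against 42.9, 47.3 and 36.1 CPM (1.02 ± 0.24, adjusted p = 0.0352). Its call was lost when any 1 library was left out, with adjusted p up to 0.139. Ebf2 itself gave 30.6, 28.9 and 53.1 CPM against 26.4, 17.7 and 19.8 CPM (0.82 ± 0.31, adjusted p = 0.148). Epsti1, an interferon-induced gene reported as a brown fat marker, went the other way, with 1.37, 1.19 and 1.00 CPM in BAT and 49.7, 25.4 and 23.2 CPM in sWAT (−4.79 ± 0.40, adjusted p = 0.00298). It was called higher in sWAT in every fit without 1 library. Tbx1, used elsewhere as a beige marker, gave at most 0.316 CPM in BAT and 2.5, 1.76 and 0.712 CPM in sWAT (−2.61 ± 0.53, adjusted p = 0.0235; up to 0.0961 without 1 BAT library).

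**Figure D3:**
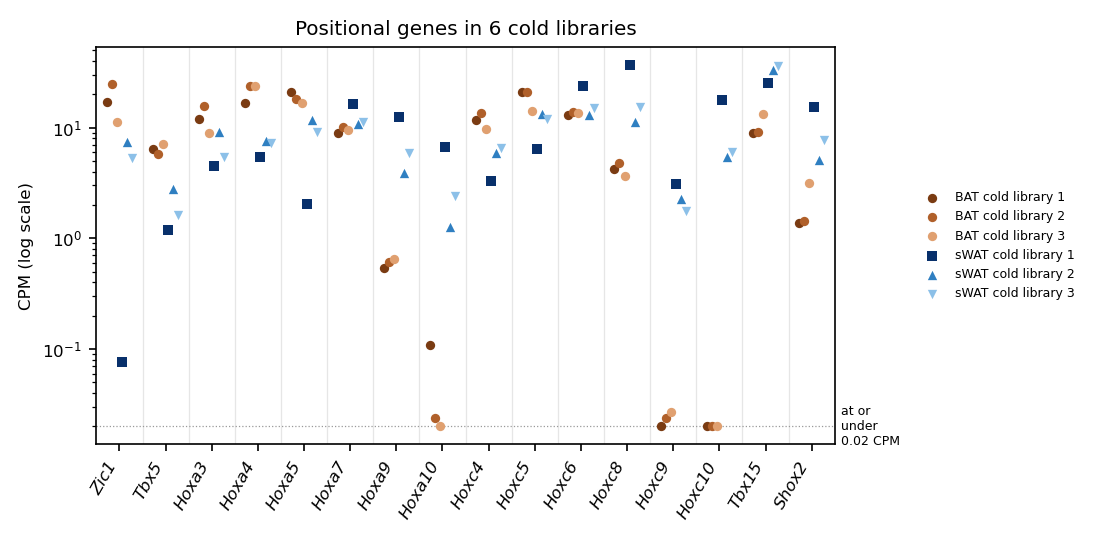
CPM (log scale) of Zic1, Tbx5, 12 Hox genes, Tbx15 and Shox2 (horizontal axis) in the 6 cold libraries, one point a library, brown for BAT and blue for sWAT; points on the dotted line are at or under 0.02 CPM. Hoxc10 sits on that line in all 3 BAT libraries, and Zic1 falls to 0.0766 CPM in sWAT library 1 only.

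White adipocyte genes were higher in sWAT for 12 of 30, against 8.87% of all genes tested, with a median of −1.29, and none was called higher in BAT. The count was 6 without BAT library 1 and 4 without BAT library 2. The 12 were Lep, Nnat, Retn, Sncg, Wfdc21, Psat1, Dpt, Slc7a10, Igf1, Rarres2, Rbp4 and Retnla, which cover secreted hormones and factors, amino acid handling and a matrix protein. Lep (ENSMUSG00000059201.12, chromosome 6, 29060220 to 29073877), the gene of the satiety hormone leptin, gave 11.7, 8.65 and 5.73 CPM in BAT and 146, 40.7 and 58.8 CPM in sWAT. The lowest sWAT library was above the highest BAT library, and sWAT library 1 was far above the other two. Its log2 fold change was −3.24 ± 0.54 (adjusted p = 0.0118), and the adjusted p was 0.0575 without BAT library 2. Nnat, a membrane proteolipid gene imprinted in mice, gave 8.08, 9.08 and 6.00 CPM against 92.5, 56.9 and 69.6 CPM (−3.24 ± 0.29, adjusted p = 0.00375). Retn, the gene of resistin, gave 66.5, 63.8 and 18.9 CPM against 305, 336 and 247 CPM (−2.57 ± 0.48, adjusted p = 0.0179). Nnat, Sncg, Psat1 and Dpt kept their calls in all 6 fits that left out 1 library. Sncg, a synuclein of white adipocytes, stood at −2.52, Psat1, an enzyme of serine synthesis, at −2.59, and Dpt, the matrix protein dermatopontin, at −2.27. Calls for Retn, Slc7a10, Igf1 and Rarres2 were lost without BAT library 1 or 2 (adjusted p up to 0.114), that for Wfdc21 without BAT library 2 or sWAT library 3 (up to 0.0816), that for Retnla without BAT library 1 or 2 or sWAT library 1 (up to 0.122), and that for Rbp4 without any 1 of the 6 (up to 0.138).

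None of 10 general adipocyte markers was called by edgeR (1 unadjusted p under 0.05, DESeq2 1 and limma-voom 0), and their median was 0.22. Adipoq, the gene of adiponectin, gave 453, 538 and 363 CPM in BAT and 719, 625 and 665 CPM in sWAT, which do not overlap (−0.57 ± 0.26, adjusted p = 0.225). Lpl, which frees fatty acids from circulating triglyceride, gave 4126, 3952 and 4968 CPM against 3837, 3568 and 4539 CPM (0.13 ± 0.30, interval −0.57 to 0.83).

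**Figure D4:**
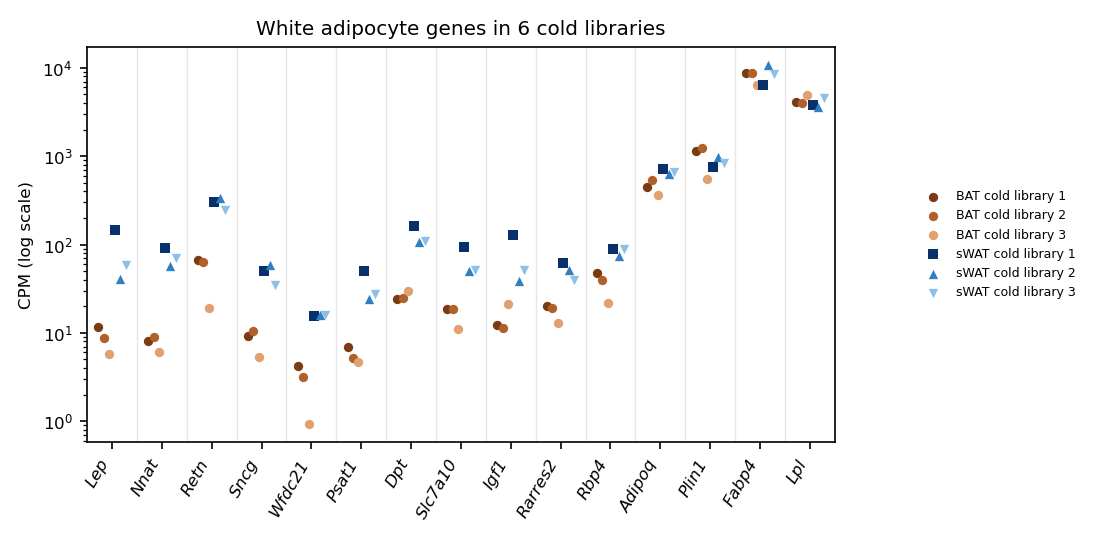
CPM (log scale) of 15 white adipocyte and adipokine genes in the 6 cold libraries, one point a library, brown for BAT and blue for sWAT. From Lep to Rbp4 the BAT points lie below all sWAT points, while Fabp4 and Lpl at the right overlap near the same level in both depots.

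Markers proposed for beige or subcutaneous fat were called higher in sWAT for 10 of 20 and higher in BAT for 0. Of all genes tested, 8.87% and 0.777% were called so. The median of the list was −1.56. The count was 3 without BAT library 1, 2 without BAT library 2 and 6 without BAT library 3. Those 10 are Tbx1, Tmem26, Tnfrsf9, Shox2, Hoxc8, Hoxc9, Hoxc10, Ear2, Slc7a10 and Tbx15, and 7 of them are also members of the positional, patterning or white adipocyte lists above. The cell surface markers Tmem26 and Tnfrsf9 were low in both depots. Tmem26 gave 0.0361, 0.0243 and 0.0815 CPM in BAT and 1.42, 0.405 and 0.344 CPM in sWAT (−3.88 ± 0.83, adjusted p = 0.0279), and Tnfrsf9, the gene of CD137, gave at most 0.433 CPM against 2.47, 1.17 and 0.909 CPM (−2.06 ± 0.49, adjusted p = 0.0399). Both calls were lost without any 1 BAT library (adjusted p up to 0.125), Tnfrsf9 also without sWAT library 2. Tmem26 entered the test through its sWAT libraries, so its call could only be higher in sWAT. Immune cell markers were higher in the sWAT libraries as described below, and their part in Tnfrsf9 and Ear2 was not tested. Slc36a2 and P2rx5, surface proteins described on brown adipocytes, gave higher values in every BAT library without being called, with adjusted p of 0.219 and 0.0666.

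Factors that thermogenic fat secretes were mixed. Of 26 tested, 1 was called higher in BAT and 4 higher in sWAT, against 0.777% and 8.87% of all genes tested, with a median of 0.27. Pm20d1, an enzyme that forms N-acyl amino acids, was higher in BAT at 26.9, 27.6 and 42.1 CPM against 13.4, 14.6 and 16.5 CPM (1.12 ± 0.25, adjusted p = 0.033), a call lost without any 1 library (adjusted p up to 0.0923). Mstn (ENSMUSG00000026100.6, chromosome 1, 53061640 to 53068079), the gene of myostatin, had the largest difference in the other direction, at 0.469, 0.632 and 0.570 CPM in BAT and 17.8, 27.5 and 51.2 CPM in sWAT (−5.83 ± 0.49, adjusted p = 0.00298). It kept its call in all 6 fits without 1 library. Skeletal muscle also makes myostatin, and muscle markers were higher in the sWAT libraries as described below; their part in this result was not tested. The other 3 were Igf1, a growth factor (−2.27), Bmp7, an inducer of brown fat differentiation (0.361, 0.413 and 0.407 CPM against 2.33, 1.83 and 1.15 CPM), and Epdr1 (−1.48), each lost without BAT library 1 and without BAT library 2. Fgf21, a hormone of fasting and cold, gave 0.760 to 2.67 CPM in BAT and 0.766 to 2.82 CPM in sWAT, which overlap (0.28 ± 0.62, adjusted p = 0.833).

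The adrenergic pathway carries the signal for heat production from receptor to cAMP to its breakdown. Of its 35 genes, 3 were called higher in BAT and 3 higher in sWAT (median 0.46). Over all genes tested the shares were 0.777% and 8.87%, so the sWAT count is near the share of all genes. At the receptor level, Adra2a, an inhibitory alpha-adrenergic receptor, was higher in sWAT at at most 0.180 CPM in BAT against 1.04, 0.50 and 0.516 CPM (−2.79 ± 0.59, adjusted p = 0.0275). Adra2a entered the test through its sWAT libraries, so its call could only be higher in sWAT. Among the adenylyl cyclases that make cAMP, Adcy5 was higher in sWAT at 4.80, 4.49 and 2.96 CPM against 39.4, 22.4 and 21.8 CPM (−2.77 ± 0.34, adjusted p = 0.00534), as was Adcy7 at 5.30, 5.27 and 6.06 CPM against 50.2, 21.2 and 20.6 CPM (−2.47 ± 0.39, adjusted p = 0.0103). Adcy10, the soluble cyclase, was higher in BAT at 35.0, 31.1 and 42.5 CPM against 10.5, 20.2 and 13.9 CPM (1.29 ± 0.29, adjusted p = 0.0342). Adcy3, another cyclase, gave 1024, 1128 and 705 CPM against 99.1, 709.7 and 442 CPM and was not called (1.19 ± 0.63, adjusted p = 0.286). Pde4a, which breaks down cAMP, was higher in BAT at 106, 126 and 124 CPM against 37.9, 65.2 and 50.5 CPM (1.22 ± 0.26, adjusted p = 0.027), and so was Rgs7, a G protein regulator (1.08 ± 0.25, adjusted p = 0.037). Only Adcy5 of these 6 kept its call in every fit without 1 library. Adcy7 was lost without BAT library 1 (adjusted p = 0.0539), Adra2a and Pde4a without any 1 BAT library, Adcy10 without any but sWAT library 2, and Rgs7 without any of the 6, with adjusted p up to 0.125. Gnas, the stimulatory G protein subunit, gave 4199, 4298 and 2464 CPM against 668, 2650.0 and 1935 CPM and was not called (1.06 ± 0.53, adjusted p = 0.26).

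In lipid and sugar metabolism few genes passed in the main fit, where 0.777% of all genes tested were called higher in BAT and 8.87% higher in sWAT. Without BAT library 3 and sWAT library 1 together, 12 genes of lipogenesis, 12 of glycolysis and 9 of the lipolysis list were called higher in BAT. In that fit 1, 7 and 2 were called higher in sWAT. DESeq2 called 8, 6 and 4 higher in BAT and 1, 6 and 2 higher in sWAT. Over all genes, the fit without those libraries called 1611 of 14864 higher in BAT and 2792 higher in sWAT. The DESeq2 totals were 670 and 1901 of 14930. De novo lipogenesis had 1 of 23 called in each direction: Mlxipl, the carbohydrate-sensing factor ChREBP, was higher in BAT at 711, 879 and 728 CPM against 274, 413 and 288 CPM (1.25 ± 0.28, adjusted p = 0.0327), and Fads1, a desaturase of polyunsaturated fatty acids, was higher in sWAT (−1.35 ± 0.34, adjusted p = 0.0484). Fasn, fatty acid synthase, gave 31365, 33221 and 16788 CPM against 11211, 20117 and 12616 CPM, which overlap (0.89 ± 0.44, adjusted p = 0.259). Of 34 genes of lipolysis, lipid uptake and triglyceride synthesis, Agpat9, a glycerol phosphate acyltransferase, was higher in sWAT at 10.2, 12.3 and 11.2 CPM against 56.2, 25.7 and 26.6 CPM (−1.69 ± 0.35, adjusted p = 0.0243) and 0 were higher in BAT. Gpd1, which supplies the glycerol backbone, gave 22167, 25735 and 20601 CPM against 6264, 13173 and 10040.0 CPM without being called (1.22 ± 0.40, adjusted p = 0.107). Glycolysis had 1 of 33 called higher in BAT, the phosphofructokinase Pfkp (1.13 ± 0.28, adjusted p = 0.0442), and 4 higher in sWAT: the enolases Eno2 and Eno3, Pfkfb4, which controls phosphofructokinase, and the glucose transporter Slc2a3. Eno3, the muscle enolase, followed the muscle markers, at 121, 326 and 429.9 CPM in sWAT libraries 1, 2 and 3. All 8 of these metabolic calls were lost without BAT library 1 and without BAT library 2, with adjusted p up to 0.153.

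Among called genes with a mean of at least 3 log2 CPM, most of the largest folds belonged to lymphoid genes. All 20 B and T lymphocyte markers were higher in sWAT, with a median log2 fold change of −6.28, and all 20 passed in each of the 22 alternative fits. Members with almost no BAT count, such as Cd3d and Cr2, entered the test through their sWAT libraries. A call for them could only be higher in sWAT. Their summed level was 6.71, 4.69 and 8.12 CPM in BAT and 927, 313 and 265 CPM in sWAT, so sWAT library 1 held the most. The called genes with the largest folds in favour of sWAT at a mean of at least 3 log2 CPM included Glycam1, Marco, Cr2, Spib, Ccl21a, Fcer2a, Fcmr, Iglc3, Cd79a, Iglc2 and Ighd, which are known from B cells, lymph node vessels and stroma, and marginal sinus macrophages. Glycam1 (ENSMUSG00000022491.5, chromosome 15, 103562759 to 103565081), a mucin of the high endothelial venules through which lymphocytes enter lymph nodes, had no count in BAT and 63.2, 24.3 and 20.9 CPM in sWAT. Pooled over libraries it was at least 1430-fold higher in sWAT, against a floor of 3 counts over the BAT group (adjusted p = 0.0048). With no BAT count it entered the test through its sWAT libraries, so a call could only be higher in sWAT. Cd79a (ENSMUSG00000003379.7, chromosome 7, 24897381 to 24902197), a part of the B cell receptor, gave 0.613, 0.413 and 0.462 CPM against 99.6, 41.1 and 32.8 CPM (−6.87 ± 0.56, adjusted p = 0.00298). Ccl21a, a chemokine of lymph node stroma and lymphatic vessels, gave 1.01, 1.02 and 0.733 CPM against 162, 136 and 57.7 CPM (−7.01 ± 0.50, adjusted p = 0.00298). Marco, a scavenger receptor of macrophages, had 4 counts in BAT and 33.2, 13.4 and 10.1 CPM in sWAT, and also entered the test through its sWAT libraries. So did Spib, Fcmr and Iglc2. Ccl21a has near-identical copies in the mouse genome and immunoglobulin constant genes resemble each other, so reads of these genes may be split between copies. In bulk tissue, fewer cells of a type and less of a gene's RNA per cell cannot be told apart. This holds for Epsti1, Adcy7, Tnfrsf9 and Ear2 above too, and the part of immune cells in them was not tested.

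Other immune and stromal markers were also higher in sWAT but by less, where 8.87% of all genes tested were called higher in sWAT. Macrophage markers were called higher in sWAT for 8 of 18 (4 when any 1 BAT library was left out) and higher in BAT for 0 (median −1.30), with summed levels of 104 to 118 CPM in BAT and 451, 293 and 269.5 CPM in sWAT. Lyz2, the lysozyme of myeloid cells, gave 23.5, 25.7 and 26.2 CPM against 181, 112 and 101 CPM (−2.39 ± 0.28, adjusted p = 0.00534), and C1qa, a complement component, gave 7.0, 7.43 and 7.39 CPM against 25.7, 20.6 and 22.5 CPM (−1.66 ± 0.21, adjusted p = 0.00534). Both kept their calls without any 1 library. Fibroblast and progenitor markers were higher in sWAT for 7 of 16 (1 without BAT library 1, 3 without BAT library 2) and higher in BAT for 0 (median −1.22), including Dpp4 and Pi16, which mark early progenitors: Pi16 gave 14.1, 19.1 and 10.2 CPM against 43.3, 52.2 and 37.8 CPM (−1.62 ± 0.29, adjusted p = 0.0148; 0.0737 without BAT library 1). Of 15 epithelial markers measured, 11 had too few counts to be tested. Among the 4 others, Epcam had no count in BAT and 60 in sWAT, and Cdh1 gave at most 0.0972 CPM in BAT and 0.689, 0.333 and 0.270 CPM in sWAT, a call lost in 4 of the 6 fits without 1 library; both entered the test through their sWAT libraries.

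Some markers of blood vessels were higher in BAT, where 0.777% of all genes tested were called so. Endothelial markers were higher in BAT for 4 of 15 (Emcn, Cdh5, Kdr and Flt1) and higher in sWAT for 0, with a median of 0.68 and summed levels of 1124, 1203 and 1199 CPM against 500.4, 677 and 607 CPM. Emcn, a sialomucin of capillaries and veins, gave 56.4, 52.4 and 65.4 CPM in BAT and 17.4, 24.0 and 23.9 CPM in sWAT (1.41 ± 0.23, adjusted p = 0.0102) and kept its call without any 1 library. Kdr, the main receptor for VEGF, gave 194, 191 and 268 CPM against 72.5, 92.8 and 95 CPM (1.33 ± 0.25, adjusted p = 0.0183). Calls for Cdh5, Kdr and Flt1 were lost without BAT library 1 or 2 or sWAT library 3 (adjusted p up to 0.0907). Smooth muscle and pericyte markers were higher in BAT for 3 of 12 (Pdgfrb, Myh11 and Acta2) and higher in sWAT for 0; Pdgfrb, a receptor of pericytes, gave 63.7, 65.0 and 68.8 CPM against 36.7, 39.7 and 33.2 CPM (0.85 ± 0.19, adjusted p = 0.0339). Each of these 3 calls was lost in 5 or 6 of the 6 fits without 1 library. Lymphatic markers had 6 of 7 log2 fold changes below 0 (median −0.92), with Ccl21a called higher in sWAT, and Flt4, a VEGF receptor of lymphatic vessels, called higher in BAT at 10.5, 12.0 and 10.7 CPM against 5.73, 6.24 and 5.21 CPM (0.95 ± 0.23, adjusted p = 0.0394; up to 0.172 without 1 library). Erythrocyte markers summed to 2075, 2516 and 338 CPM in BAT and 181, 1555 and 767 CPM in sWAT, so the libraries with low GC slopes were lowest in both depots.

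Skeletal muscle markers were called higher in sWAT for 12 of 26, against 8.87% of all genes tested, and higher in BAT for 0, with a median of −1.52. Their summed level was 6359, 8388 and 5708 CPM in BAT and 9708, 24070 and 23830 CPM in sWAT, and each of the 26 was lower in sWAT library 1 than in libraries 2 and 3. Muscle genes were present in every library of both depots. Mybpc2, a fast muscle myosin-binding protein, gave 75.4, 77.7 and 68.8 CPM against 244, 387 and 432 CPM (−2.26 ± 0.29, adjusted p = 0.00541) and kept its call without any 1 library. Myh4, a fast myosin heavy chain, gave 1071, 1506 and 935 CPM against 2191, 4484 and 4835 CPM (−1.71 ± 0.41, adjusted p = 0.0405), a call lost in every fit without 1 library but that without sWAT library 1. The list's count of 12 was 1 without BAT library 1, 2 or 3, 3 without sWAT library 2, 2 without sWAT library 3, and 0 in a fit over 12 libraries. It rose to 18 without sWAT library 1, to 20 without BAT library 3 and sWAT library 1 together, and to 16 with DESeq2 or with GC correction. Over all genes, those fits called 1301, 2792, 1901 and 1850 higher in sWAT, in that order. Car3, carbonic anhydrase 3, had the largest difference of mean CPM on the sWAT side, at 737, 803 and 716 CPM against 8845, 2843 and 3509 CPM (−2.75 ± 0.50, adjusted p = 0.0159; up to 0.0785 without 1 BAT library). Unlike the muscle list, Car3 was highest in sWAT library 1, as was Cyp2e1, a cytochrome P450, at 1318, 361 and 454 CPM (−2.47 ± 0.55, adjusted p = 0.0319), a call also lost without any 1 BAT library (up to 0.12).

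**Figure D5:**
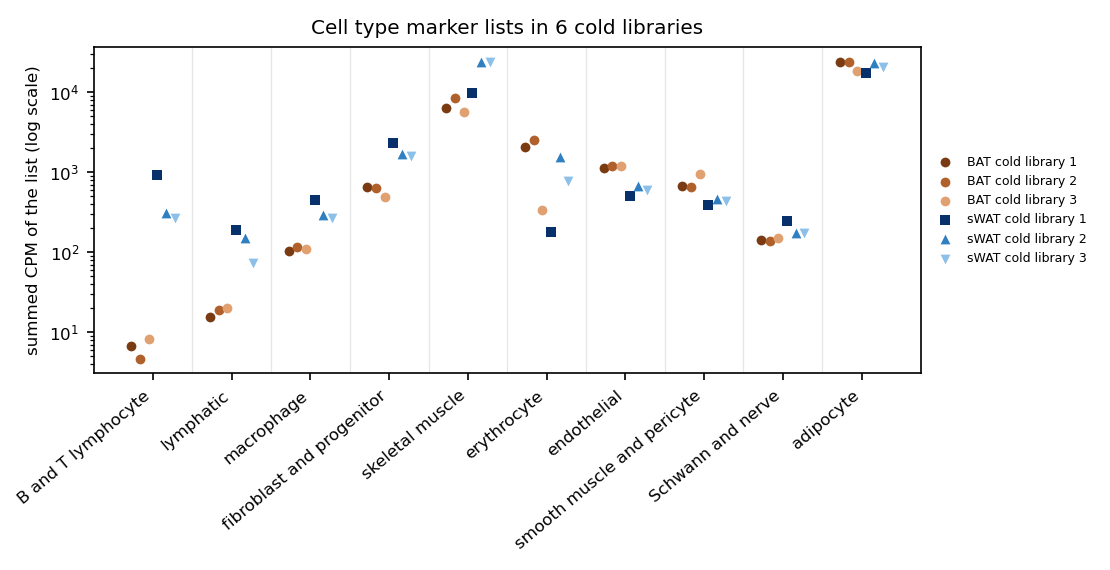
Summed CPM (log scale) of each cell type marker list (horizontal axis) in the 6 cold libraries, one point a library, brown for BAT and blue for sWAT. Lymphocyte markers sum to at most 8.12 CPM in BAT and at least 265 CPM in sWAT, whereas endothelial markers lie higher in the BAT libraries and adipocyte markers overlap.

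The 12 called genes with the largest folds in favour of BAT (mean of at least 3 log2 CPM, no overlap) were Ttc25, Nr4a2, Olfr1396, Podxl, Hoxa4, Smarcd1, Ampd3, Heyl, Emcn, Shtn1, Sox7 and Parm1. Ttc25, a gene of cilia assembly, was first, at 214, 183 and 176 CPM against 24.8, 68.7 and 55.2 CPM (1.95 ± 0.38, adjusted p = 0.0209). Nr4a2, an orphan nuclear receptor induced by cAMP, gave 30.1, 40.1 and 57.6 CPM against 7.97, 15.8 and 11.7 CPM (1.85 ± 0.35, adjusted p = 0.0185). Podxl, a sialomucin of vessels and podocytes, gave 137, 199.8 and 191 CPM against 36.7, 59.9 and 57.4 CPM (1.78 ± 0.29, adjusted p = 0.0105). Emcn, Podxl, Sox7 and Heyl are known from vessels. Smarcd1, a subunit of SWI/SNF chromatin remodellers, gave 154, 174 and 176 CPM against 33.5, 78.7 and 51.8 CPM (1.62 ± 0.33, adjusted p = 0.0235). Among called genes whose groups did not overlap, those with the largest difference of mean CPM in favour of BAT were Hsp90ab1, Mlxipl, Prelp, Dag1, Ppp1r3b, Parm1, Pigq and Cdh5. Hsp90ab1, a constitutive chaperone, gave 1652, 2158 and 2295 CPM against 625, 999 and 853 CPM (1.30 ± 0.31, adjusted p = 0.0408). Of these 19 genes only Emcn was called in every fit without 1 library, while Podxl and Hoxa4 were lost only without BAT library 2 (adjusted p of 0.0553 and 0.0535). Nr4a2 was lost without BAT library 2 or sWAT library 3, and Ttc25, Smarcd1 and Hsp90ab1 without any 1 BAT library or sWAT library 3 (adjusted p up to 0.168).

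RNA-binding and growth genes gave a few more differences, beside 0.777% of all genes tested called higher in BAT and 8.87% higher in sWAT. Cirbp, a cold-inducible RNA-binding protein, was higher in sWAT at 10.1, 9.23 and 4.92 CPM against 21.6, 17.2 and 20.3 CPM (−1.28 ± 0.31, adjusted p = 0.0434), a call lost in 5 of the 6 fits without 1 library. Its relative Rbm3 gave 30.0, 34.2 and 64.8 CPM against 184, 61.5 and 86.0 CPM, which overlap (−1.36 ± 0.48, adjusted p = 0.125). Among 64 splicing regulators 1 was higher in BAT and 3 higher in sWAT: Nova2, a neuronal and endothelial splicing factor, at 8.80, 9.79 and 10.6 CPM against 4.00, 5.19 and 4.05 CPM (1.14 ± 0.24, adjusted p = 0.0278), and Cirbp, Rbfox1 and Srpk3. Srpk3, a muscle kinase of splicing factors, gave 1.51, 1.38 and 1.58 CPM against 7.80, 5.0 and 6.43 CPM (−2.10 ± 0.29, adjusted p = 0.00631) and was called in all 6 fits without 1 library. Rbfox1, a splicing factor of muscle and neurons, stood at −1.47 ± 0.30. Thyroid hormone and retinoid handling gave 0 of 24 higher in BAT and 3 higher in sWAT, including the retinaldehyde dehydrogenases Aldh1a1 (5.77, 6.05 and 6.98 CPM against 27.8, 14.4 and 21.7 CPM) and Aldh1a3 (0.649, 0.947 and 0.706 CPM against 5.50, 3.00 and 3.98 CPM, called in all 6 fits), which make retinoic acid. Aldh1a1 was lost without BAT library 1 or 2 (adjusted p up to 0.063), and Nova2 without any but sWAT library 1 (up to 0.117). Cell cycle genes were called higher in sWAT for 4 of 32 and higher in BAT for 0 (median −1.11), beside 8.87% of all genes tested. The count was 0 without BAT library 1 or 2, 1 without BAT library 3 or sWAT library 2 or 3, and 12 with GC correction. With GC correction, 1850 of all 14930 genes tested were called higher in sWAT. Of the 32, 28 were highest in library 1 among the sWAT libraries, as were 6928 of all 14930 genes tested. The same held for all 20 lymphocyte markers, 44 of 64 splicing regulators and 34 of 44 extracellular matrix genes. Extracellular matrix genes were called at about the share of all genes (8.87%), with 4 of 44 higher in sWAT and 0 higher in BAT, namely the proteases Mmp2, Mmp3 and Mmp14 and their inhibitor Timp2, each lost without BAT library 1 and without BAT library 2. Immediate early genes were split, with Nr4a2 higher in BAT and Btg2, Egr2 and Egr3 higher in sWAT. No clock gene of 19 was called (5 with an unadjusted p under 0.05, DESeq2 1, limma-voom 0), nor any of 22 genes of branched-chain amino acid breakdown (4, 3 and 0) or of 19 genes of heme and iron (3, 3 and 0).

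Some genes were shown to be close in the depots rather than merely not called. The 95% interval of the fold change lay within 2-fold either way for 4800 of the 13489 genes not called. The narrowest around 0 were housekeeping genes of the cytoskeleton, RNA and protein traffic. Capzb, an actin capping subunit, gave 108, 122 and 111 CPM against 119, 114 and 112 CPM (interval −0.48 to 0.44), and Ctsa, a lysosomal protease, gave 72.0, 76.4 and 65.8 CPM against 74.4, 72.0 and 62.7 CPM (interval −0.42 to 0.49).

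At 30 °C the same depots differed at many more genes, 9056 of 15578 (58.1%), although the libraries there differed in composition: mitochondrially encoded genes took 17.6% to 37.7% of the counts in BAT and 0.181% to 0.307% in sWAT. Of the 116 genes higher in BAT in the cold, 111 were tested there and 87 (78.4%) were called higher in BAT at 30 °C too, against 28.2% of all genes tested. Of the genes higher in sWAT in the cold 1275 were tested there, and 1043 (81.8%) were called higher in sWAT at 30 °C, against 30% of all, while 64 (5.02%) were called higher in BAT. Lymphoid and positional genes were among them: Cd79a stood at −7.64 ± 0.40 at 30 °C and −6.87 in the cold, and Hoxa9 at −2.81 ± 0.44 and −3.62. Some thermogenic genes had larger fitted differences at 30 °C: Dio2 stood at 6.96 ± 0.50 there, Ppargc1a at 4.89 ± 0.49, Cidea at 3.98 ± 0.50 and Ucp1 at 3.44 ± 0.74, against 1.01 to 1.29 in the cold. The difference between temperatures was itself past the threshold for Dio2, Ppargc1a and Cidea, and not for Ucp1 (adjusted p = 0.108). Not every member of the list was higher in BAT at 30 °C. On the scale of all 12 libraries, Adrb3 gave 127, 119 and 75.9 CPM in BAT and 369, 402 and 334 CPM in sWAT there. Ucp2 gave 54.5, 37.6 and 69.1 CPM against 347, 167 and 207 CPM. Lep had no called depot difference at 30 °C (−0.52 ± 0.32, adjusted p = 0.18), and Mstn was higher in BAT there (4.06 ± 0.75, adjusted p = 0.00079).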

How the data were processed

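RNA sequencing counts were available for 12 libraries in 4 groups of 3. Per the labels' protocols, libraries were made from 1000 ng of total RNA with a TruSeq total RNA kit and read as paired ends of 100 nt. The deposited table holds the authors' raw counts per gene symbol. STAR, DESeq2 and mm10 are named in the submitters' processing notes; neither the counting tool nor its strand setting nor the annotation is named in the sources at hand. Some library names say "Merged", which the labels do not explain.

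The 6 cold libraries were tested with edgeR 4.0.16 in R 4.3.3 (filterByExpr, TMM scaling, quasi-likelihood test with robust=TRUE, Benjamini-Hochberg adjustment over 14930 genes, threshold 0.05). Every adjusted p in the text is from that test unless another tool is named. Errors of log2 fold changes are standard errors derived from the F statistic, and intervals are at 95%. With total counts of 29568610 to 56243016, 3 counts were taken as the limit of detection in a library. Fold bounds for genes at 0 in BAT use 3 counts over the whole BAT group (0.0284 CPM). Intervals on counts cover counting error only. DESeq2 1.42.0, limma-voom 3.58.1, other scalings and filters, GC correction, a block on the replicate number and leave-outs were alternatives. The edgeR step was tested on simulated data. Depot differences at 30 °C, and their difference from those in the cold, came from the same test.

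Replicate numbers, which the titles mark as "Exp", recur across tissues, and the labels do not say what an experiment comprised. Deviations of same-numbered BAT and sWAT libraries correlated at −0.52, 0.61 and −0.34, and those of BAT library 3 and sWAT library 1 at 0.63. With 3 libraries a tissue, of which those last named stood apart, these values cannot show whether libraries of 1 number share animals. They were not treated as pairs, because what the number marks is not stated. No 2 of the cold libraries agreed within counting noise. Gene positions are from GENCODE M21 on mm10 and promoters from RefSeq on GRCm38.p6.

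Genes were named by a rule: 17 genes whatever their values; per direction, the 12 called genes with the largest folds (mean of at least 3 log2 CPM, no overlap, no predicted gene models) and the 8 with the largest difference of mean CPM (no overlap); all members of the 7 lists on heat production, lineage, position, white fat and secreted factors; from each other list up to 5 called members a direction by adjusted p and up to 3 uncalled ones by mean CPM; and the 10 genes of at least 6 log2 CPM with the narrowest intervals around 0. The comparison, the lists and the rule were chosen with earlier results of these data known, so counts over a list are descriptions. Some genes that the rule covers are not reported here.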

Additional observations from a re-analysis of the deposited data

Results flagged for a closer look

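The depot difference itself differed between temperatures for 98 of the 357 genes covered by the naming rule, 351 of which had a value at 30 °C, by an interaction term in edgeR's quasi-likelihood test over 12 libraries. Over all genes 4108 of 16365 (25.1%) passed. Among the genes named whatever their values, the log2 difference BAT minus sWAT in the cold, less that at 30 °C, was −5.97 for Dio2, −3.61 for Ppargc1a, −3.0 for Cidea and −5.79 for Zic1. These 4 genes stood further apart between the depots at 30 °C than at 4 °C. It was −2.71 for Lep and −2.57 for Tbx15, which were called higher in sWAT in the cold and were not called at 30 °C. It was 1.33 for Cirbp, which was called higher in sWAT at both temperatures. In the cold, Zic1 was at 0.0766 CPM in sWAT library 1 and at 7.43 and 5.28 CPM in libraries 2 and 3, so its value rests on the last 2. In sWAT, mitochondrially encoded genes took 0.181% to 0.307% of the counts at 30 °C and 19.7% to 33.6% in the cold, and the part of this in the differences was not tested.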

How the results depend on the processing

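The excess of calls in sWAT held in all 22 alternatives, but the number of calls moved. Against 116 genes higher in BAT and 1325 higher in sWAT, BAT calls came to 65 with upper quartile scaling, 670 with DESeq2, 195 in a fit over 12 libraries, 459 with GC correction and 0 for a minimum change of 2-fold (glmTreat), which left 646 in sWAT. Leaving out 1 library at a time gave 2 to 65 in BAT and 485 to 1301 in sWAT. Without BAT library 3 and sWAT library 1 together there were 1611 and 2792, and without sWAT libraries 2 and 3 together, chosen after seeing the data, 254 in BAT. The share of calls higher in BAT was 8.05%, against 26.1% with DESeq2, 19.9% with GC correction and 36.6% without BAT library 3 and sWAT library 1. With the replicate number as a block, the counts were 8 and 701, and 65 in BAT for the replicate block with GC correction. Whether the numbers pair the libraries is not known.

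Of 133 called genes covered by the naming rule, 33 kept their call in every alternative, 100 lost it in at least 1 and 0 turned direction. One gene not called, Mest, stood at −1.66 without BAT library 3 and sWAT library 1 against a value above 0 with all 6. The cause of these shifts was not tested. Genes at 0 counts in BAT are bounded by 3 counts over the group (0.0284 CPM). Genes with almost no BAT counts entered the test through their sWAT libraries, so their calls could only be higher in sWAT.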
